A study of Mus musculus with 14 samples.

Results

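The genes described here are 8 genes of the oligodendrocyte lineage: Olig1, Olig2, Sox10, Pdgfra, Cspg4, Cnp, Mbp and Mog. They are named markers of the lineage among the 45802 features of a table of log2 gene signals in 14 RNA libraries. Of the 8 genes, 7 had a value in every library and were among the 10877 genes tested. Mog was listed in 4 libraries and was not tested. The libraries came from primary cortical neuronal cultures of C57BL/6 WT mice. On day 12 in vitro the cultures were exposed for 1 h to 1 of 5 conditions. The control was 1% DMSO (2 libraries, numbered 2 and 3). In 3 libraries each, the treatment was 20 µM bicuculline, NMP peptides at 4% (v/v), such peptides after digestion by proteinase K at 4% (v/v), named PK-cleaved NMP peptides here, or NMP peptides at 4% (v/v) with 100 µM APV (NMP peptides plus APV). NMP stands for the neuronal membrane proteasome, a proteasome at the plasma membrane of neurons that releases peptides to the outside. Bicuculline blocks GABA-A receptors and so raises network activity, and APV blocks NMDA receptors. No group received APV alone, and DMSO is named only for the control group. On the GRCm38 assembly the RefSeq annotation places Olig2 at chromosome 16, 91225550 to 91228677, and Olig1 41091 bases downstream at 91269769 to 91271939. Sox10 lies at chromosome 15, 79154913 to 79164490, and Pdgfra at chromosome 5, 75151322 to 75198206. Cspg4 lies at chromosome 9, 56865104 to 56899870, and Cnp at chromosome 11, 100574909 to 100591875. Mbp lies at chromosome 18, 82475091 to 82585637, and Mog at chromosome 17, 37010740 to 37023398.

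Oligodendrocytes are the myelinating glia of the central nervous system. They arise from oligodendrocyte precursor cells (OPCs), which divide in response to PDGF-A acting on the receptor Pdgfra and carry the NG2 proteoglycan, the product of Cspg4. The transcription factors Olig1, Olig2 and Sox10 are used throughout the lineage: Olig2 specifies it, Sox10 drives myelin genes, and Olig1 is needed for maturation. As precursors stop dividing they pass through a short premyelinating stage, marked by Gpr17, Bcas1 and Enpp6, before the myelin proteins Cnp, Mbp and Mog appear in that order. OPCs receive synapses from neurons and respond to neuronal activity. Primary cultures of cortex can contain glia and progenitors beside neurons, and Olig1 and Olig2 are also used by neural progenitors.

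Promoters are shown for Pdgfra, Cspg4 and Cnp, because Pdgfra and Cspg4 varied together between libraries and Cnp varied against Cspg4. A RefSeq table on GRCm38.p6 held a promoter for 5 of the 8 genes, each running from 250 bases before to 50 bases after a transcription start: Olig2, Pdgfra, Cspg4, Cnp and Mog. Capitals mark matches on either strand to an E-box (CANNTG, the sequence class bound by Olig1 and Olig2), to a SOX element (AACAAT) or to a GC box (GGGCGG).
Pdgfra (chr5:75152001-75152300, + strand): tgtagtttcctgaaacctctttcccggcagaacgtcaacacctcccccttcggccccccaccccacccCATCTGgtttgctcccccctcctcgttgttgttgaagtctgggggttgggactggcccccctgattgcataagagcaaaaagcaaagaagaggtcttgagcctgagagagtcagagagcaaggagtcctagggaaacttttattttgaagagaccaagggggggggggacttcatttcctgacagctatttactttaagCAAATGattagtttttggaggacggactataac
Cspg4 (chr9:56864854-56865153, + strand): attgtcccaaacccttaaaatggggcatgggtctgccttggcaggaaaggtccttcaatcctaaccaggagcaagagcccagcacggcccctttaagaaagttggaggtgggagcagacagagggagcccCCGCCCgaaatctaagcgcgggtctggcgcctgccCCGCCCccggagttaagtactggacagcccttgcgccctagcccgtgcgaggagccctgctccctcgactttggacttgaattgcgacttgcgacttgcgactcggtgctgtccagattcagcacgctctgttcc
Cnp (chr11:100574689-100574988, + strand): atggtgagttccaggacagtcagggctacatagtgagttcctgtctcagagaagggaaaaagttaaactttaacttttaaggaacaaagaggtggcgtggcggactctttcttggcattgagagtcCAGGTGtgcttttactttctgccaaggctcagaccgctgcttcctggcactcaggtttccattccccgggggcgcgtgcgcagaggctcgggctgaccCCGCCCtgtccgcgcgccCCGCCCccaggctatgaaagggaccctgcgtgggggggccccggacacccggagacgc
The Pdgfra window held 2 E-boxes and no GC box. The Cspg4 window held 2 GC boxes and no E-box, and the Cnp window held 1 E-box and 2 GC boxes. The Olig2 window, which is not printed, held 1 SOX element and 2 GC boxes, and the Mog window held none of the motifs. The Pdgfra and Cspg4 windows thus shared none of these motifs. The Pdgfra window lies downstream of the gene start given above, since the table uses another start. Among 27025 promoters of the same length, 72.1% held an E-box, 10.9% the SOX element and 35.9% a GC box. A match is a run of letters and not a measured binding site.

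Values are log2 signals with the marks of quantile normalisation between libraries and of scaling per exon length. The length scaling is inferred from the sums per library, and comparisons of level between genes rest on it. A difference of 1 is a 2-fold difference. Read depth is unknown, since the deposited table holds no counts. Markers of the labelled cell type were abundant: all 8 general neuronal markers were tested, with a summed level of 10.8 to 11.1 over the libraries. The 8 lineage genes summed to 6.96 to 7.51, 12 astrocyte markers to 9.18 to 9.52, and 7 neural progenitor markers to 9.64 to 10.03. The part of progenitors in the Olig1 and Olig2 signals was not tested. Of 8 microglia markers and 8 endothelial and mural markers, 0 and 0 were tested, and of 8 fibroblast and meningeal markers 2 were. Pdgfra is also used by fibroblasts and Cspg4 by pericytes. The endothelial and mural list summed to 0.58 to 1.23, and the fibroblast and meningeal list to 3.35 to 4.18. The part of those cells in the Pdgfra and Cspg4 signals was not tested. Gfap, an astrocyte gene, set 4 libraries apart: DMSO replicate 2 (4.13), bicuculline replicate 2 (4.18), NMP peptides replicate 3 (4.15) and PK-cleaved replicate 3 (3.97), against 2.15 to 3.47 in the other 10.

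Transcription factors of the lineage and the OPC receptor Pdgfra stood above the late myelin genes, although the OPC gene Cspg4 lay below Mbp and the myelin gene Cnp above Sox10. Olig1 had the highest mean level of the 8 genes, 6.23 ± 0.25 (SD, n = 14), a level exceeded by 4.09% of the features with a value. Olig2 followed at 5.19 ± 0.14, Pdgfra at 3.78 ± 0.16, Cnp at 3.10 ± 0.14 and Sox10 at 2.51 ± 0.20 (SD, n = 14 each). Mbp stood at 1.49 ± 0.24 and Cspg4 at 0.69 ± 0.32. The ranges of neighbours in this order did not overlap for Olig1, Olig2, Pdgfra and Cnp, nor for Cnp and Sox10 or Sox10 and Mbp, while those of Mbp and Cspg4 did. On the antilog scale Olig1 was 26.7 times Mbp, and Pdgfra was 4.87 times Mbp. These ratios rest on the inferred length scaling, and the annotation behind it was not given in the sources used here. These are bulk libraries, in which fewer cells of a type and less RNA per cell cannot be told apart.

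In the lists of other lineage genes the share with testable levels was largest for OPC genes. Of 17 further OPC genes 12 had levels high enough to be tested, of 14 differentiation and premyelinating genes 6, and of 25 myelin genes, Cnp, Mbp and Mog included, 7. The most abundant OPC genes were Cspg5 (mean 6.54), Ptprz1 (6.09) and Lhfpl3 (3.97), of which the first and the second are also used by astrocytes and neurons. Fyn (5.84), a kinase with wide use in neurons, and Sirt2 (5.08), a tubulin deacetylase abundant in oligodendrocytes, led the second list. Among myelin genes Cnp was followed by Car2 (3.10) and Tspan2 (2.94). Mobp, Opalin, Aspa, Ppp1r14a and Apod, genes of mature oligodendrocytes, lacked a value in some libraries, as Mog did. So did Neu4 of the OPC list, with a value in 9 libraries, and Olig3 of the differentiation list, with a value in 11.

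**Figure D1:**
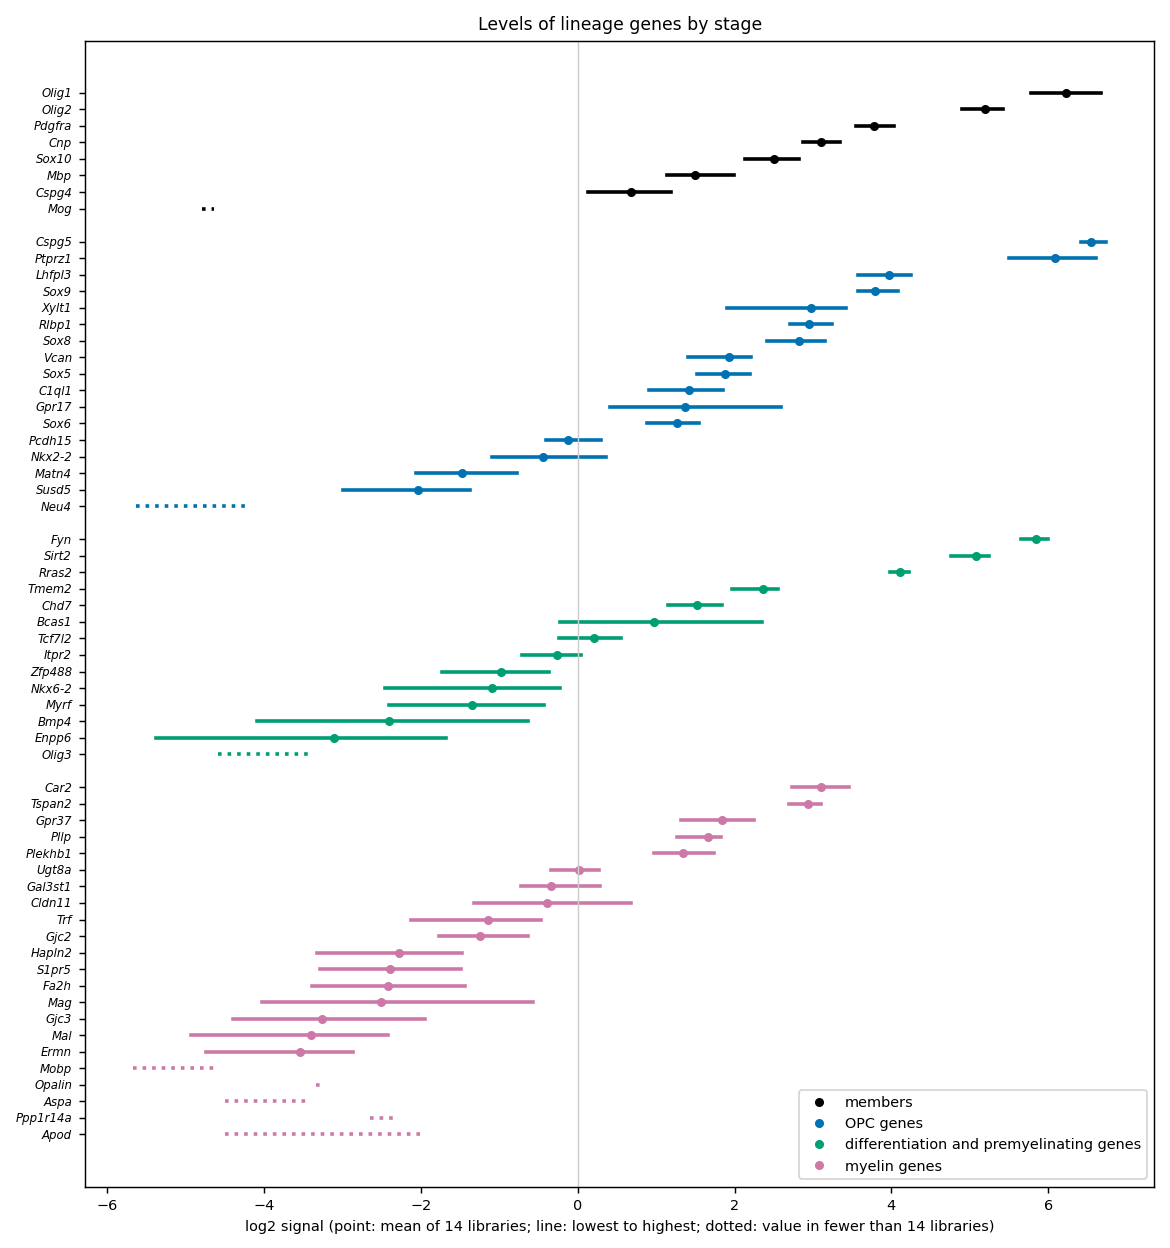
Mean log2 signal over 14 libraries (points) and lowest to highest library (lines) for the 8 lineage genes and for OPC, premyelinating and myelin genes; dotted lines are genes with a value in fewer than 14 libraries. Olig1 lies near 6.23 and Mbp near 1.49, and the dotted genes are mostly myelin genes.

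Olig1 was read at 6.00 and 6.58 in the DMSO libraries 2 and 3. Replicates 1 to 3 gave 6.20, 5.78 and 6.38 with bicuculline, 6.44, 6.12 and 5.90 with NMP peptides, 6.22, 6.19 and 6.05 with PK-cleaved NMP peptides, and 6.38, 6.34 and 6.67 with NMP peptides plus APV. The APV libraries all lay above the PK-cleaved ones, and every other pair of groups overlapped. Its within-group SD of 0.26 was larger than that of 93.4% of tested genes.

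Olig2 varied less, with a within-group SD of 0.12 against a median of 0.13 over tested genes. It was read at 5.36 and 5.29 with DMSO, 5.10, 5.20 and 5.04 with bicuculline, 4.90, 5.08 and 5.21 with NMP peptides, 5.22, 5.16 and 5.24 with PK-cleaved NMP peptides, and 5.36, 5.06 and 5.42 with NMP peptides plus APV. Both DMSO libraries lay above all libraries of the bicuculline, NMP peptide and PK-cleaved groups.

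Sox10 had the same arrangement. It was read at 2.71 and 2.74 with DMSO, 2.39, 2.69 and 2.47 with bicuculline, 2.25, 2.31 and 2.53 with NMP peptides, 2.41, 2.42 and 2.66 with PK-cleaved NMP peptides, and 2.60, 2.13 and 2.82 with NMP peptides plus APV. The APV group spanned both the lowest and the highest of the 14 values.

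Pdgfra, the PDGF-A receptor, was read at 3.64 and 3.88 with DMSO, 3.79, 3.55 and 3.84 with bicuculline, 3.71, 3.81 and 3.61 with NMP peptides, 3.55, 3.94 and 3.68 with PK-cleaved NMP peptides, and 3.95, 3.87 and 4.04 with NMP peptides plus APV. The 3 APV libraries lay above all NMP peptide and all bicuculline libraries. Cspg4 ranged most of the tested genes of the set, from 0.13 (PK-cleaved replicate 1) to 1.19 (NMP peptides plus APV replicate 3), with a within-group SD of 0.35 that exceeded that of 98.1% of tested genes. No pair of groups was separated for Cspg4.

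Of the myelin genes, Cnp, which encodes a phosphodiesterase made before compact myelin forms, ranged from 2.87 (bicuculline replicate 1) to 3.35 (DMSO replicate 2). Mbp, which encodes the basic protein that holds myelin layers together, ranged from 1.13 (NMP peptides replicate 1) to 2.00 (bicuculline replicate 2). No pair of groups was separated for either gene. The Mbp locus also makes golli transcripts, which neurons can express and which a value per gene does not set apart. Up to 154 bases of Cnp exon are shared with Dnajc7 on the opposite strand, which had 6.23 to 6.40 in the libraries, and the sources used here do not state whether counting used the strand, so reads of the pair cannot be told apart there. Mog, a surface protein of mature myelin, was listed at -4.80 in DMSO replicate 2, -4.64 in NMP peptides replicate 2, and -4.73 and -4.68 in NMP peptides plus APV replicates 1 and 3. The libraries with a Mog value thus fell in 3 groups, and the other 10 libraries listed none.

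**Figure D2:**
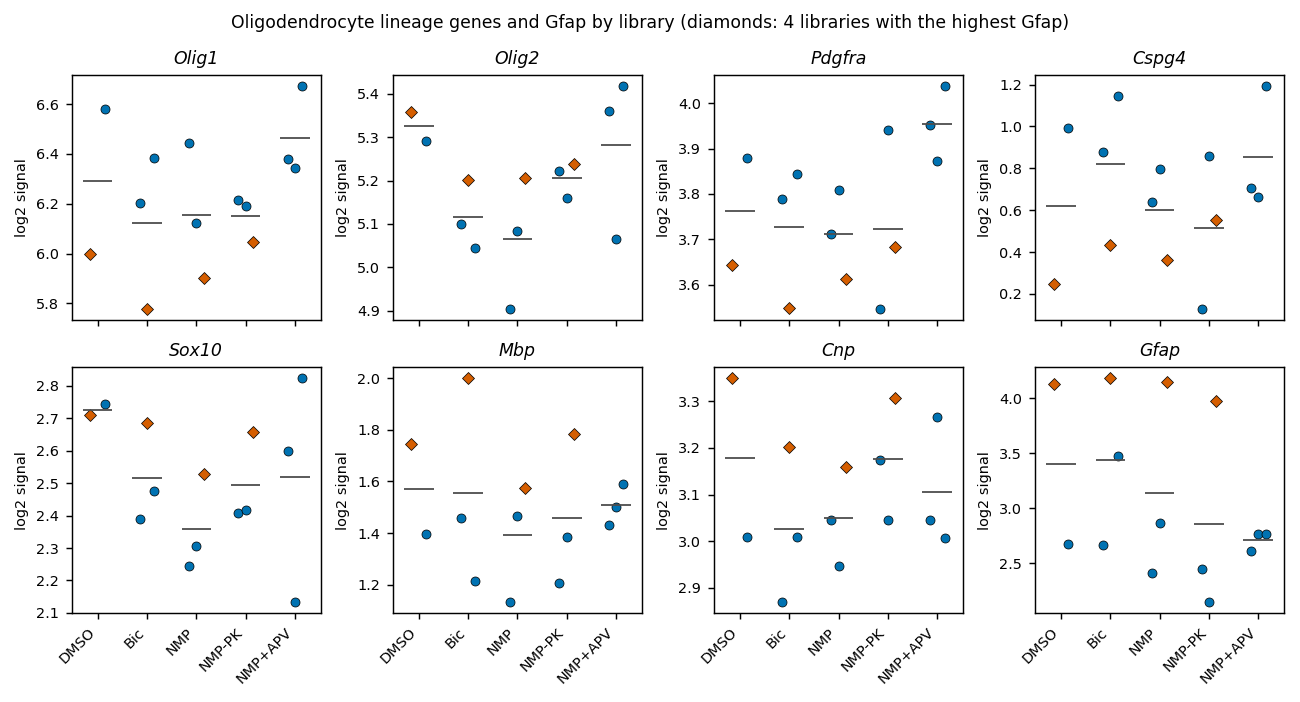
Log2 signal of 7 lineage genes and of Gfap in each library, by group: DMSO, bicuculline (Bic), NMP peptides (NMP), PK-cleaved NMP peptides (NMP-PK) and NMP peptides plus APV (NMP+APV); horizontal lines are group means and diamonds the 4 libraries with the highest Gfap. The diamonds are the 4 lowest points for Olig1, from 5.78 to 6.05, and lie in the upper part of their groups for Mbp and Cnp.

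None of the 7 tested lineage genes passed the test in any of the 10 comparisons between groups. Over the 70 gene and comparison pairs, the limma p-values adjusted by Benjamini-Hochberg were never below 0.284. The largest fold change was -0.37 on the log2 scale, and all 70 of the 95% intervals lay within 1 of 0. The widest change still allowed by an interval was 1.34-fold for Cnp, 1.39-fold for Pdgfra, 1.40-fold for Olig2, 1.56-fold for Mbp, 1.64-fold for Olig1, 1.65-fold for Sox10 and 1.82-fold for Cspg4. Changes smaller than these bounds are compatible with the intervals, which rest on 2 or 3 libraries a group. The labels speak of biological replicates but not of separate animals or platings, and the p-values therefore cover only the variation among these libraries, which may be technical.

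**Figure D3:**
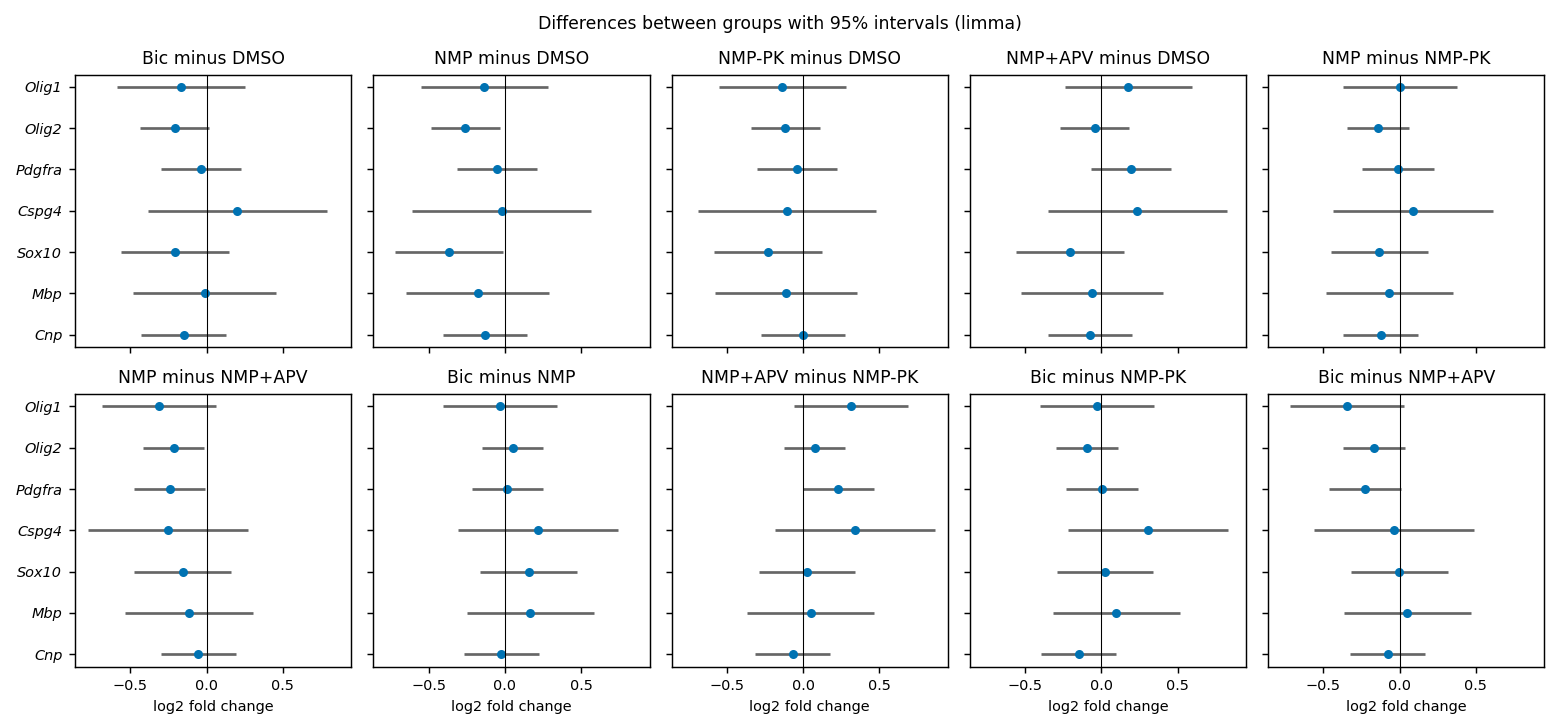
Log2 fold changes (points) with 95% intervals (lines) from limma for 7 lineage genes in 10 comparisons, the first group named minus the second. Intervals for Olig2 and Sox10 in NMP minus DMSO and for Olig2 and Pdgfra in NMP minus NMP+APV miss 0, none by an adjusted p under 0.05, and all intervals lie within 1 of 0.

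No lineage gene passed the test in the comparisons of bicuculline, NMP peptides and PK-cleaved NMP peptides with DMSO. With NMP peptides Olig2 differed by -0.26 (SE 0.11, limma adjusted p = 0.971) and Sox10 by -0.37 (SE 0.17, limma adjusted p = 0.971). With bicuculline the differences were -0.21 and -0.21, and with PK-cleaved NMP peptides -0.12 and -0.23. In each of these 3 comparisons, which share the DMSO libraries, Olig2 and Sox10 were the genes whose libraries did not overlap with DMSO. Libraries did not overlap for 17.8%, 17.4% and 11% of all tested genes in the bicuculline, NMP peptide and PK-cleaved comparisons with DMSO, and the control group has only 2 libraries. Olig2 and Sox10 also varied together between libraries (r = 0.83), so the 2 genes of 7 are not read as a result about them. With NMP peptides plus APV against DMSO 0 of the 7 genes were separated, against 29.8% of all tested genes; Olig2 differed by -0.04 and Sox10 by -0.21 there, and Pdgfra, by 0.19, had the smallest p of the 7 (limma adjusted p = 0.575). Over all tested genes 0.469% were called for bicuculline, 0.0184% for NMP peptides and 0.625% for NMP peptides plus APV. For PK-cleaved NMP peptides limma called 0% (0 of 10877), with 114 genes at an unadjusted p under 0.05. The median difference of the 7 genes was -0.15 with bicuculline, -0.13 with NMP peptides, -0.11 with PK-cleaved NMP peptides and -0.04 with NMP peptides plus APV, beside -0.03, -0.04, -0.04 and -0.05 over all tested genes.

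The group with APV had the highest mean of the 5 groups for Olig1, Pdgfra and Cspg4. In NMP peptides against NMP peptides plus APV, Pdgfra differed by -0.24 (SE 0.11, limma adjusted p = 0.301), Olig2 by -0.22 (SE 0.09, limma adjusted p = 0.289) and Olig1 by -0.31 (SE 0.17, limma adjusted p = 0.403). All 7 genes had a negative difference there, with a median of -0.22 against 0.01 over all tested genes, of which 53.5% were above 0, 1.43% were called and 21.8% did not overlap. In bicuculline against NMP peptides plus APV, Pdgfra differed by -0.23 (limma adjusted p = 0.284) and Olig1 by -0.34 (limma adjusted p = 0.307), where 3.33% of tested genes were called and 25.6% did not overlap. In NMP peptides plus APV against PK-cleaved NMP peptides, Olig1 differed by 0.31 (limma adjusted p = 0.401) and Pdgfra by 0.23 (limma adjusted p = 0.326), where 1.39% were called and 20.2% did not overlap. These 3 comparisons share the APV libraries. Other markers moved with the same group: the 12 astrocyte markers summed to 9.42 to 9.52 with APV and 9.18 to 9.39 in the other libraries, and the 8 inhibitory neuron markers to 8.86 to 8.93 against 8.98 to 9.21. Markers of dividing cells, of which 6 of 7 were tested, summed to 4.38 to 4.87 with APV and 3.97 to 4.68 elsewhere. The APV group also held none of the 4 libraries with the highest Gfap. The part of these differences in the lineage values was not tested.

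In the remaining comparisons no lineage gene was called. Between NMP peptides and PK-cleaved NMP peptides, which by their labels differ in the digestion by proteinase K, the 7 differences ran from -0.14 (Olig2) to 0.09 (Cspg4), and 0.0827% of tested genes were called. Between bicuculline and NMP peptides they ran from -0.03 (Olig1) to 0.22 (Cspg4), with 0.175% called, and between bicuculline and PK-cleaved NMP peptides from -0.15 (Cnp) to 0.31 (Cspg4), with 0.533% called. Libraries were separated for 0 of the 7 genes in each of these comparisons, and for 5.21%, 4.7% and 6.62% of all tested genes in the order given, so the 0 is near the background. The replicate numbers are not stated to pair libraries. Between the cleaved and uncleaved peptide groups, same-numbered libraries shared deviations from the group means (r = 0.51, 0.50 and 0.61 for replicates 1 to 3). Replicate 3 had the highest Gfap in both groups, and its part in these r values was not tested. Within the pairs of replicates 1 to 3, Cnp differed by -0.13, -0.10 and -0.15, Sox10 by -0.16, -0.11 and -0.13, and Olig2 by -0.32, -0.08 and -0.03, uncleaved minus cleaved. These 3 genes were lower with the uncleaved peptides in every pair, and the other 4 were not of 1 sign. The share of all tested genes with 1 sign in every pair was not computed, so this is a description only. With the replicate block in a fit of these groups alone, the limma adjusted p was 0.739 for each of the 3.

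For each of the 7 genes the widest range within a group exceeded the spread of the 5 group means, from 0.35 against 0.26 for Olig2 to 0.78 against 0.18 for Mbp. The widest of 5 ranges is set there against averaged values, which favours this order, and the share of all tested genes was not computed. Olig1 lay on one side of the variation within groups and Mbp, Cnp and Olig2 on the other. In each of the 4 groups other than the APV group, the library with the highest Gfap had the lowest Olig1 of its group and the highest Mbp, Cnp and Olig2. Olig1 was 6.00 in DMSO replicate 2 against 6.58 in replicate 3, and these 4 libraries were the 4 lowest of all 14 for Olig1. Mbp was 1.74 against 1.40 in the same DMSO libraries, 2.00 against 1.46 and 1.21 with bicuculline, 1.57 against 1.13 and 1.47 with NMP peptides, and 1.79 against 1.21 and 1.39 with PK-cleaved NMP peptides. Over the 14388 features with a value in every library, 11.7% were highest and 6.53% lowest of the group in all 4 of these libraries, while 3 of the 7 lineage genes were highest and 1 was lowest. Over tested genes, 2.46% had these 4 libraries as their 4 lowest and 4.06% as their 4 highest. For Pdgfra and Cspg4, 3 of the 4 were among the 4 lowest, and for Mbp and Cnp 3 of the 4 were among the 4 highest. The share of all tested genes with 3 of the 4 was not computed.

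Genes of differentiating cells also separated these libraries. Gpr17, a receptor of cells about to differentiate, was 2.59, 2.54, 2.43 and 2.51 in the 4 libraries with the highest Gfap (DMSO 2, bicuculline 2, NMP peptides 3 and PK-cleaved 3). The other 10 libraries lay between 0.41 and 1.28. Within each group the gap to the next library was 2.74-fold to 3.06-fold. Bcas1, a marker of newly forming oligodendrocytes, was 2.35, 2.26, 2.09 and 2.23 in the same libraries and between -0.22 and 1.14 in the others, with gaps of 2.80-fold to 3.88-fold. For both genes these 4 libraries stood apart from the other 10, and the treatment groups overlapped.

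Further genes of the OPC, premyelinating and myelin lists had the highest value of each of the 4 groups in these libraries. Enpp6, an enzyme of new oligodendrocytes, had gaps of 1.99-fold to 2.80-fold in these groups. Myrf, the transcription factor that turns on myelin genes, had gaps of 1.36-fold to 2.48-fold, and Nkx2-2, a transcription factor of early differentiation, 1.50-fold to 2.03-fold. The myelin genes Mag and Cldn11 had gaps of 1.71-fold to 3.92-fold and 1.42-fold to 2.75-fold. Bmp4, a secreted factor also made by committed precursors, had 2.84-fold to 6.09-fold, although NMP peptides plus APV replicate 3 (-1.63) lay above NMP peptides replicate 3 (-1.67). Of these 8 genes, counting the former 2, Gpr17 and Bcas1 were high enough to be among the tested genes, and the other 6 were not.

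By list, the library with the highest Gfap was the highest of its group in all 4 groups for 7 of 13 differentiation and premyelinating genes (Bmp4, Enpp6, Bcas1, Myrf, Zfp488, Sirt2 and Fyn), and the lowest for 0. It was the highest for 6 of 19 myelin genes (Mag, Fa2h, Cldn11, Mal, Mbp and Cnp) and the lowest for 1 (Tspan2). Among 16 OPC genes it was the highest for 5 (Gpr17, Vcan, Sox5, Sox8 and Nkx2-2) and the lowest for 2 (Rlbp1 and Susd5). Among 15 ligands it was the highest for 2 and the lowest for 2 (Pdgfb and Igf1), and among 15 receptors the highest for 2 and the lowest for 0. Among 10 genes listed as inhibitors of differentiation it was the highest for 3 (Id2, Sox5 and Gpr17) and the lowest for 0. The shares over all features were the 11.7% and 6.53% given above, which the ligand and receptor counts lie near. The 4 libraries were picked by Gfap, and the 8 genes given above with their values or gaps were chosen after all values had been seen, so these counts are a description with no test. Among markers of other cells, the same libraries were the highest of their groups for 4 of 7 fibroblast and meningeal genes (Col1a2, Col3a1, Dcn and Fbln1), for 3 of 8 inhibitory neuron genes (Dlx1, Dlx2 and Npy) and for 1 of 12 astrocyte genes, Gfap itself. They were the highest for 1 of 8 excitatory neuron genes (Neurod6), 1 of 7 neural progenitor genes (Sox2), 0 of 8 general neuronal, 0 of 4 microglia, 0 of 5 endothelial and mural and 0 of 7 dividing-cell genes. They were the lowest for 2 of 12 astrocyte genes (Slc4a4 and Glul), 2 of 8 excitatory neuron genes (Slc17a7 and Slc17a6), 1 of 8 inhibitory neuron genes (Gad1), 2 of 8 general neuronal genes (Rbfox3 and Nefl) and 1 of 7 neural progenitor genes (Eomes). The part of these cells in the lineage pattern was not tested.

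**Figure D4:**
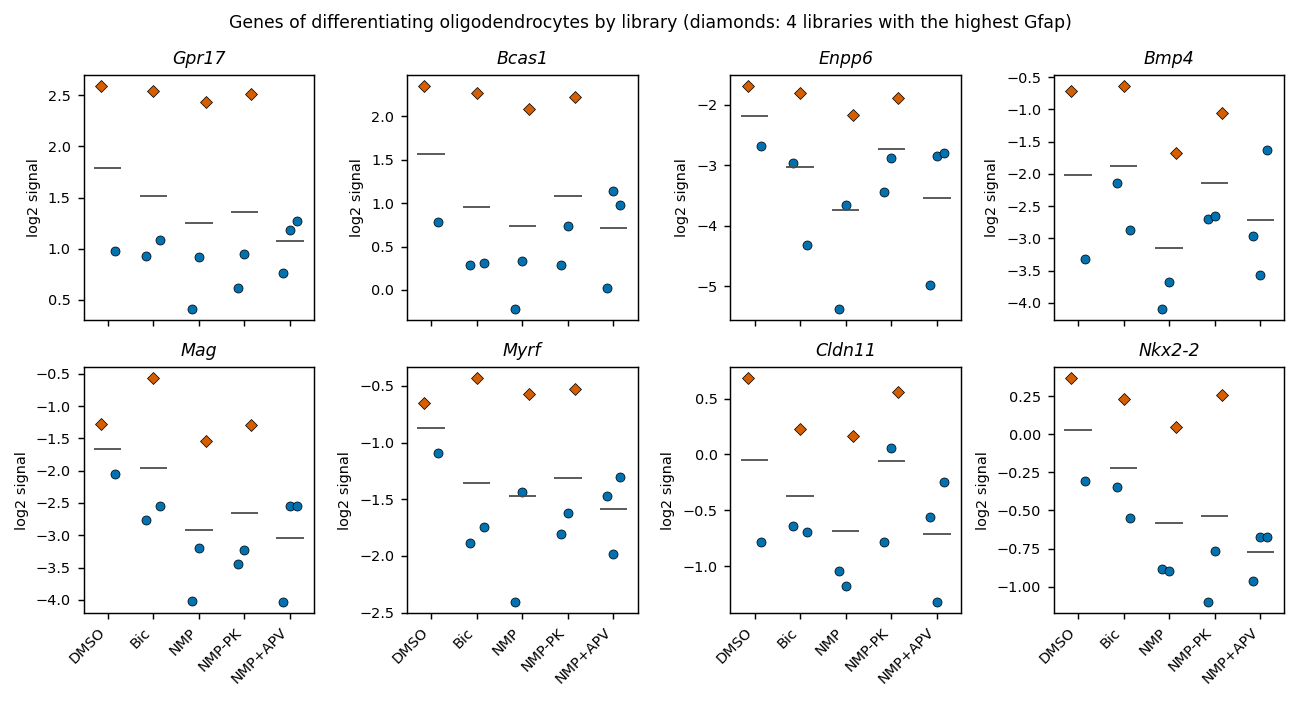
Log2 signal in each library, by group, of 8 genes of differentiating oligodendrocytes; horizontal lines are group means and diamonds the 4 libraries with the highest Gfap, with group names abbreviated as in the plot of the 7 lineage genes. The diamonds for Gpr17 lie between 2.43 and 2.59 and all circles at or below 1.28. Each diamond is the highest point of its group for all 8 genes. The 8 genes were chosen after all values had been seen, so this is a description with no test.

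Because the APV group held none of these libraries, the comparisons were repeated without them, which leaves 1 DMSO library whose spread is assumed to be that of the other groups. No lineage gene was called in that fit either. The Olig1 difference between NMP peptides and NMP peptides plus APV went from -0.31 to -0.18 and that between bicuculline and NMP peptides plus APV from -0.34 to -0.17. The omitted libraries are the 4 lowest of all 14 for Olig1 and none is in the APV group, so these smaller gaps were fixed by the omission. Pdgfra went from -0.24 to -0.19 and from -0.23 to -0.14 in the same comparisons. Olig2 in NMP peptides against NMP peptides plus APV went from -0.22 to -0.29 (SE 0.11, limma adjusted p = 0.374). For NMP peptides plus APV against DMSO, 4 of the 7 genes changed sign: Olig1 from 0.18 to -0.11, Cspg4 from 0.24 to -0.14, Cnp from -0.07 to 0.10 and Mbp from -0.06 to 0.11. The APV libraries are the same in both fits, so these sign changes come from leaving out DMSO replicate 2 alone.

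Several lineage genes varied together between libraries. Among 21 pairs over 14 libraries, Pearson's r had a permutation p under 0.05 after Benjamini-Hochberg adjustment for 5, and Spearman's rho for 3 of them. Pdgfra and Cspg4, the genes of the OPC surface, had r = 0.84 (adjusted permutation p = 0.00262) and rho = 0.82 (adjusted permutation p = 0.00619). Their r was 0.79 without the 2 libraries farthest from the median and 0.78 over the 10 libraries with lower Gfap. Olig2 and Sox10 had r = 0.83 (adjusted permutation p = 0.00262) and rho = 0.82 (adjusted permutation p = 0.00619), with r = 0.76 and 0.84 after the same omissions. Cspg4 and Cnp varied against each other, with r = -0.70 (adjusted permutation p = 0.0278) and rho = -0.79 (adjusted permutation p = 0.00833), and r = -0.74 and -0.54 after the omissions.

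Olig1 went with Pdgfra (r = 0.75, adjusted permutation p = 0.0144, rho = 0.67, adjusted permutation p = 0.0574) and with Cspg4 (r = 0.68, adjusted permutation p = 0.0278, rho = 0.65, adjusted permutation p = 0.0574). Over the 10 libraries with lower Gfap these r values were 0.47 and 0.49. Olig1 and Mbp had r = -0.60 (adjusted permutation p = 0.0763), which was 0.15 over those 10 libraries, so that relation rests on the 4 libraries with the highest Gfap. Olig1 and its neighbour on the chromosome, Olig2, had r = 0.05 (adjusted permutation p = 0.933), with 0.44 over the 10 libraries with lower Gfap and -0.38 on deviations from the group means. Other pairs also depend on the 4 libraries: over the other 10, Olig1 and Sox10 had r = 0.67 (0.00 over all 14), and Pdgfra and Mbp 0.70 (-0.28 over all 14). The libraries share 1 quantile normalisation, and group differences enter these values.

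**Figure D5:**
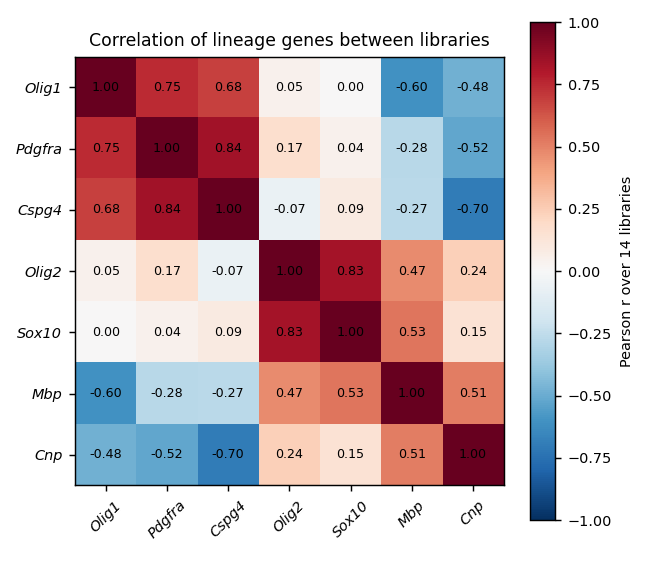
Pearson's r over 14 libraries for each pair of 7 lineage genes, from -1 (blue) to 1 (red). Olig1, Pdgfra and Cspg4 have r of 0.68 to 0.84 with each other, Olig2 and Sox10 0.83, and Cspg4 and Cnp -0.70.

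Of the further genes of the lineage and its signals, few passed the test. Gpr37, a receptor of maturing oligodendrocytes that is counted among the myelin genes, was higher with NMP peptides than with NMP peptides plus APV by 0.58 (SE 0.12, 1.50-fold, limma adjusted p = 0.0303) and higher with bicuculline than with NMP peptides plus APV by 0.62 (SE 0.12, 1.54-fold, limma adjusted p = 0.0117). It was read at 1.37, 1.32 and 1.50 with NMP peptides plus APV, at 2.18, 1.97 and 1.78 with NMP peptides, at 1.89, 1.90 and 2.25 with bicuculline, and at 1.92 and 2.00 with DMSO. All 3 APV libraries lay below the other 11. Gpr37 is also expressed by neurons. It was the 1 gene of 7 tested myelin genes to pass, while the median log2 fold change of that list was -0.15 in the first of these comparisons and -0.04 in the second. Over all tested genes 1.43% were called in the first and 3.33% in the second. The first call was lost in 7 of 14 alternative fits. Without NMP peptides replicate 1 it had an adjusted p of 0.152, and it was also lost without NMP peptides replicate 2 (0.0874), without APV replicate 1 (0.115), 2 (0.102) or 3 (0.0739), in the fit that omits the high-Gfap libraries (0.0691) and with the replicate block in the compared groups alone (0.104). Its fold change stayed between 0.48 and 0.68 on the log2 scale in all 14 fits. The call against bicuculline was lost without bicuculline replicate 3 (limma adjusted p = 0.0665) and without APV replicate 1 (0.0525) or 2 (0.051), with a fold change of 0.50 to 0.68 over its alternatives.

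All 10 genes listed as inhibitors of differentiation were tested. Of these, Hes5, a target of Notch signalling, was lower with NMP peptides plus APV than with PK-cleaved NMP peptides (log2 fold change -0.83, SE 0.19, limma adjusted p = 0.0487). In this comparison 1.39% of all tested genes were called. Hes5 was read at 3.44 and 2.80 with DMSO, 2.86, 2.84 and 3.11 with bicuculline, and 2.73, 2.75 and 3.38 with NMP peptides. The PK-cleaved libraries lay above those of every other group, and the APV libraries overlapped with DMSO, bicuculline and NMP peptides. In the compared groups Hes5 was read at 3.07, 2.76 and 2.53 with APV against 3.76, 3.60 and 3.52 with PK-cleaved NMP peptides. The call was lost in 11 of 15 alternative fits, among them each fit that left out 1 library of these groups (limma adjusted p = 0.0574 to 0.189), while the fold change stayed between -0.98 and -0.68. The most abundant genes put on that list, Id2 (mean 6.05), Lingo1 (5.55) and Tcf4 (4.44), did not pass in any comparison. The list was drawn up by name, and an inhibitory role of Tcf4 is not shown by these data.

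Among 10 tested ligands of 16, Nlgn3, a synaptic adhesion protein whose shed form stimulates OPCs, was lower with bicuculline than with NMP peptides plus APV (log2 fold change -0.46, SE 0.12, limma adjusted p = 0.0413). In this comparison 3.33% of all tested genes were called. Nlgn3 was read at 4.66, 4.52 and 4.43 with bicuculline and at 5.05, 5.01 and 4.94 with NMP peptides plus APV. The other groups gave 4.56 and 4.70 with DMSO, 4.50, 4.75 and 4.58 with NMP peptides, and 4.30, 4.85 and 4.65 with PK-cleaved NMP peptides. The APV libraries thus lay above all others, while the bicuculline libraries overlapped with DMSO, NMP peptides and PK-cleaved NMP peptides. This call was lost in 9 of 15 alternative fits, with a limma adjusted p of 0.175 without bicuculline replicate 3 and 0.145 without APV replicate 1, while the fold change stayed between -0.52 and -0.41. Pdgfa, the ligand of Pdgfra (mean 4.10), and Wnt7b (4.56) did not pass. Of 12 tested receptors of 15, led by Fgfr1 (3.50), Bmpr1a (3.28) and Fgfr3 (3.21), 0 passed limma's test in any comparison, and of 12 tested OPC genes and 6 tested differentiation genes 0 and 0 did.

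The tested genes whose levels were most like each lineage gene over the 14 libraries were Slc25a18 for Olig1 (Pearson's r = 0.97), Rab2b for Olig2 (0.92), Gnpat for Sox10 (0.92), Disp2 for Pdgfra (0.97), Tln2 for Cspg4 (0.90), Agbl5 for Mbp (0.95) and Exo5 for Cnp (0.96). On deviations from the group means they were Slc25a18 (0.98) for Olig1, Pja1 (0.97) for Olig2, Vat1 (0.95) for Sox10, Tln2 (0.99) for Pdgfra, Myh9 (0.96) for Cspg4, Agbl5 (0.97) for Mbp and Tbrg1 (0.99) for Cnp. Tln2 led for Cspg4 by levels and for Pdgfra by deviations. With 14 libraries and 10877 genes high values of r occur for every gene, so these are the nearest genes in rank and no more.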

How the data were processed

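RNA from 14 libraries was sequenced as paired-end reads of 100 bases after ribosomal depletion, per the labels' protocols. The authors deposited 1 table of log2 signals, which is used as it stands. Every library has the same median (2.19) and the same maximum (12.0), the mark of quantile normalisation. Per the submitters' processing notes, reads were placed on GRCm38.p6. For aligner, counter and annotation, names were not given in the sources used here. Antilogged values times exon length sum to between 1180660 and 1266380 per library, as values per length would. Depth is unknown.

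Features were ranked by mean and the lowest 40% dropped, leaving 10877 genes without missing values. With limma 3.58.1 (R 4.3.3), 1 linear model with a mean for each group took in all 14 libraries (empirical Bayes with a variance trend, two-sided, Benjamini-Hochberg within each of 10 comparisons, adjusted p under 0.05). The procedure was tested on simulated data. Correlations used 100000 permutations (SciPy 1.17.1). Summed marker levels are the log2 of summed antilogged values. Named genes are the 8 lineage genes, list genes that passed the test, the 3 most abundant tested genes of each list, the 3 genes most like each lineage gene, Gfap, and the genes said to be chosen after their values were seen. The lineage genes and lists were chosen with earlier results of these data known, and 2 genes of the lists are not reported here and are left out of their counts. Alternatives were other filters, median centring, a replicate block, fits of the compared groups alone, no variance trend, array weights, each library left out, and the 4 libraries with the highest Gfap left out. Replicate numbers went with shared deviations between the PK-cleaved and the uncleaved peptide groups (r = 0.51, 0.50 and 0.61 for replicates 1 to 3) and for no other pair of groups in every replicate with 3 pairs.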

Additional observations from a re-analysis of the deposited data

How the results depend on the processing

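The number of lineage genes called was 0 in each of the 10 comparisons and stayed 0 in all 142 alternative counts, among them every fit that left out 1 library (0 to 0). The smallest limma adjusted p in any alternative was 0.0826, for Pdgfra in NMP peptides against NMP peptides plus APV with array weights. The stricter filter removed Cspg4, Sox10 and Mbp from the test. Of the 70 gene and comparison pairs, 40 changed sign in some alternative, so the direction of most differences is not fixed by these data. The 4 fold changes of lineage genes with an unadjusted p under 0.05, and the 4 of Gpr37, Hes5 and Nlgn3, kept their sign in all 113 alternatives run for them. They were picked by p in the same data. Alternatives that change only the filter, the variance trend or the groups fitted leave the estimate as it is. The kept sign is therefore no support for these differences. With the replicate block 0 lineage genes were called in every comparison. This includes the uncleaved against the PK-cleaved peptides, where same-numbered libraries shared deviations. A block fitted to the compared groups alone, chosen after seeing the data, gave 0 in the 6 comparisons without DMSO. Quantile normalisation hides a change in total RNA, and without counts the precision of low genes such as Mog, Mag and Enpp6 cannot be stated.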
